A study of Mus musculus with 4 samples.

Results

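The genes described here are the enzymes that crosslink the extracellular matrix: the transglutaminases Tgm1, Tgm2, Tgm3 and F13a1, the lysyl oxidases Lox, Loxl1, Loxl2, Loxl3 and Loxl4, and the lysyl hydroxylase Plod2. They were taken from the array table as all probe sets that the platform annotation gives to 1 of these 10 genes and to no other, out of 18193 genes that have such a probe set. Of the 10 genes, 9 had values, by 20 probe sets. Both probe sets of Loxl2 name a further gene, so Loxl2 is given no value. The family was selected on the signal of Tgm2, which an earlier analysis of these arrays had found higher in both melanotransferrin clones, so the group difference of Tgm2 is described here with no test. The other genes were taken as relatives of it, but with earlier results of these data known, so the choice was not blind to their values.

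The arrays came from LMTK- cells, mouse fibroblasts that descend from L cells and lack thymidine kinase. All lines were stably transfected with pCI-neo, a vector with a viral promoter and a neomycin resistance gene, and RNA of each line was hybridised to 1 Mouse Genome 430 2.0 array. The control lines, vector 1 and vector 2, carried the vector alone, and the clones MTf 4 and MTf 6 carried it with the cDNA of mouse melanotransferrin, an iron-binding protein held at the cell membrane. There were 2 arrays per group, each MTf line is 1 clone, and whether the vector lines were separate clones is not stated, so the spread between them may be in part technical. The comparison asks which transcripts differ in cells that overexpress melanotransferrin.

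Crosslinking turns secreted matrix proteins into an insoluble, mechanically stable network. Transglutaminases join glutamine to lysine side chains in a calcium-dependent reaction, and Tgm2, the tissue form, acts in the cell, at its surface and on fibronectin in the matrix. Lysyl oxidases are secreted copper enzymes that oxidise lysines of collagen and elastin to aldehydes, which then form crosslinks. Plod2 hydroxylates lysines in the ends of collagen chains before secretion, which influences the kind of crosslink that lysyl oxidases later make. Fibroblasts are a main source of these enzymes, whereas Tgm1 and Tgm3 belong to keratinocytes and F13a1 to macrophages and platelets.

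In these fibroblasts 5 of the 9 genes had signals that could be tested: Tgm2, Loxl1, Loxl3, Loxl4 and Plod2. A signal is the scaled brightness of a probe set on a linear scale. A probe set was tested where its mean over the 4 arrays was at least the median of all probe sets, a signal of 206, and 12 of the 20 probe sets passed. Tgm1, Tgm3, F13a1 and Lox did not pass by any probe set. For 4 of the 10 genes the RefSeq promoter table holds a start site, namely F13a1, Loxl4, Tgm1 and Tgm3. The 250 bases before a start are printed for Loxl4, which passed the filter, and for Tgm3 and F13a1, which did not, to set their base composition side by side. They are from GRCm38.p6 and run 5′ to 3′ toward the start, with each CG dinucleotide in capitals.
Loxl4, chr19:42612807-42613056 (minus strand): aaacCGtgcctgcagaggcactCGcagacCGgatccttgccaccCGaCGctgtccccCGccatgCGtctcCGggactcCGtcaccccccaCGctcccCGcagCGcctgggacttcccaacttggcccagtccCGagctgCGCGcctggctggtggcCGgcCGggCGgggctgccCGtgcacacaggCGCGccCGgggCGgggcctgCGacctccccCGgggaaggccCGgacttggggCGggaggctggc
Tgm3, chr2:130012090-130012339 (plus strand): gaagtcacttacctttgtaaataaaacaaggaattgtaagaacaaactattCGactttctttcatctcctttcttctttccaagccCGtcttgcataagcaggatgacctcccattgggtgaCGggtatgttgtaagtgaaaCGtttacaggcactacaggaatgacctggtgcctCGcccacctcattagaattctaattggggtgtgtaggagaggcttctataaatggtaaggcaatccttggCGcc
F13a1, chr13:37050245-37050494 (minus strand): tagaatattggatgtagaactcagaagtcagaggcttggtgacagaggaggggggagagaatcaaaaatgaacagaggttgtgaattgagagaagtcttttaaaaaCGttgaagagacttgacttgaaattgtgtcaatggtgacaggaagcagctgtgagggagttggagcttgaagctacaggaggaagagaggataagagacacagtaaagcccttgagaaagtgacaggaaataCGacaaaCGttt

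The Loxl4 promoter held 27 CG dinucleotides and was 76.0% G and C. Of all 32851 promoters of this length in the table, 8.56% had as many or more. The Tgm3 promoter held 6, like the median of all promoters (6), and the F13a1 promoter held 3, a number that 71.0% of promoters reach or exceed. The other F13a1 window held 4 and the windows of Tgm1 held 7 and 8. For scale, the median was 17 over the 8721 genes with a promoter and a tested probe set, and 6 over the 5731 genes whose probe sets were all below the filter, each gene counted by its window with the most. The motif TATAAA, searched on both strands, was found in the Tgm3 window alone among these 6 windows, starting 28 bases before the start, and 12.4% of all promoters hold it. These are descriptions of the sequence and were not tested against the signals.

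By 4 of its 5 tested probe sets Tgm2, transglutaminase 2, gave more signal in each clone than in either vector line. Of all tested probe sets 12.1% parted the groups this way, and since Tgm2 was chosen for this difference nothing is read from its count. Its log2 differences, MTf minus vector, lay between 0.39 and 0.91 with a median of 0.62, or 1.31-fold to 1.87-fold. Differences are on the scale of log2(signal + 32) and folds are of signal + 32, which understates those of dim probe sets. Signals are of bulk RNA, so fewer expressing cells and less RNA per cell cannot be told apart. The probe sets read the same 4 arrays and may share target sequence, so they are not replicates of each other.

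By probe set 1437277_x_at, the Tgm2 signals were 1169.8 and 983.5 in vector 1 and vector 2, and 1807 and 2295 in MTf 4 and MTf 6. The clones were at 2051 ± 345 (SD, n = 2) and the vector lines at 1077 ± 132 (SD, n = 2), the widest gap of the 5, with a log2 difference of 0.91. By 1417500_a_at they were 1051 and 965 in vector 1 and vector 2, and 1506 and 1689 in MTf 4 and MTf 6, and the groups differed by 0.65 (log2). In both of these probe sets the gap between the groups was wider than the gap within either group. The brightest probe set, 1433428_x_at, gave 2001 and 1559 in vector 1 and vector 2, and 2272 and 3299 in MTf 4 and MTf 6. Here MTf 4 was close to vector 1, and MTf 6 stood above it, with a log2 difference between the groups of 0.62. Without MTf 6 it was 0.36 and without MTf 4 it was 0.89.

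The dimmest tested probe set of Tgm2, 1426004_a_at, gave 586 and 424 in vector 1 and vector 2, and 647 and 681 in MTf 4 and MTf 6, and the groups differed by 0.39 (log2). It parted the groups, but the vector lines lay farther apart than the groups did. By 1455900_x_at the signals were 1246.1 and 879 in vector 1 and vector 2, and 1245.2 and 1879 in MTf 4 and MTf 6. MTf 4 thus lay just below vector 1, and this probe set did not part the groups. The sixth probe set, 1438942_x_at, was below the filter, with 108 and 99.7 in vector 1 and vector 2, and 21.6 and 99.1 in MTf 4 and MTf 6. It was low in MTf 4 and much alike in the other lines, and unlike the rest it was lower in both clones. In array naming the suffix _x_at marks probes that can bind other transcripts, which applies to 4 of the 6 probe sets, and _a_at marks probes shared by transcripts of 1 gene. Both probe sets with the suffix _a_at parted the groups, as did 2 of the 3 tested ones with _x_at, in the values for which Tgm2 was chosen.

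**Figure D1:**
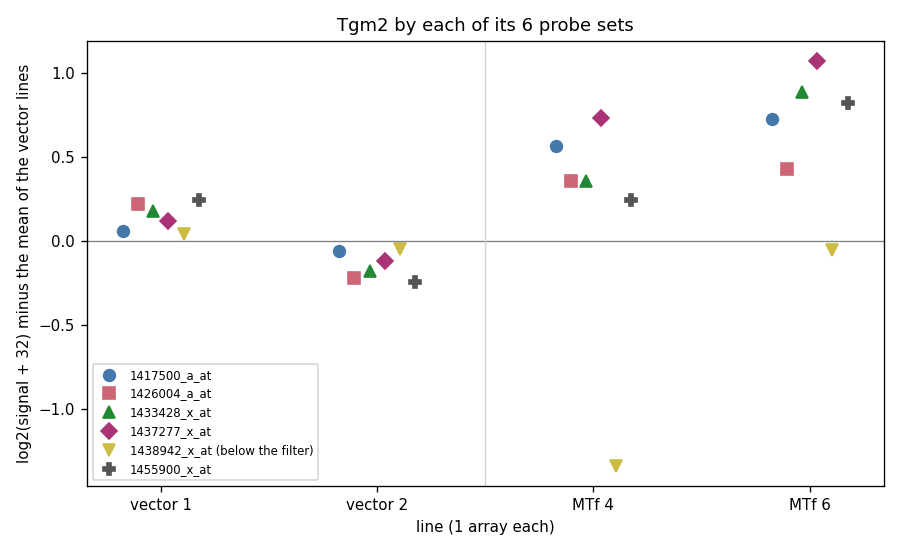
Each symbol is the log2(signal + 32) of 1 Tgm2 probe set in 1 line, minus the mean of the vector lines for that probe set. The 5 tested probe sets lie between 0.24 and 0.74 in MTf 4 and between 0.43 and 1.07 in MTf 6, and the one below the filter lies apart in MTf 4.

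The lines of each group also differed in Tgm2, always the same way. MTf 6 was above MTf 4 by all 5 tested probe sets, 1.05-fold to 1.50-fold, and vector 1 was above vector 2 by all 5, 1.09-fold to 1.40-fold. Across the array 27.9% of the tested probe sets had both of these orders. The group difference was larger than both within-group differences for 3 of the 5. Each line was hybridised once, so differences between single lines have no replicate check. The Actb control probes give a ratio of 3′ to 5′ signal, a measure of RNA integrity, which was 1.31 in MTf 6, where Tgm2 was highest, and 1.21 to 1.23 in the other lines. The same ratio by the Gapdh control probes was lowest in MTf 6, at 0.669 against 0.681 to 0.691 in the other lines, so the 2 ratios set MTf 6 apart in opposite directions. The part of either in the Tgm2 signals was not tested.

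The genes whose pattern over the 4 lines was most like that of the brightest Tgm2 probe set were Trim36, Tfcp2l1, Klf4, Arnt and Boc. Likeness is the Euclidean distance between log2 values centred on their own mean over the 4 arrays, among 10701 other genes with 1 probe set each. The distances were 0.067 for Trim36, 0.080 for Tfcp2l1, 0.16 for Klf4, 0.18 for Arnt and 0.18 for Boc, against a median of 0.87 over all genes. These genes were picked for the smallest distances over only 4 arrays. That they lie under the median was therefore fixed by the search, and nothing is read from it. The other tested probe sets of Tgm2 itself lay at 0.14 to 0.40. Other tested probe sets of these genes were less like it, at 0.74 for Trim36, 0.53 for Klf4 and 0.69, 0.72 and 0.93 for Arnt. Tfcp2l1 and Boc had no other tested probe set, so for each of these genes the likeness is that of 1 probe set. Signals of Klf4, a transcription factor, were 1401 and 1204 in vector 1 and vector 2, and 1659.8 and 2199 in MTf 4 and MTf 6.

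The other transglutaminases were dim in every line. Tgm1, which crosslinks the envelope of keratinocytes, gave signals of 109 and 41.9 in vector 1 and vector 2, and 13.9 and 56.2 in MTf 4 and MTf 6. Tgm3, an enzyme of hair follicle and epidermis, gave 314.5, 63.6, 188.5 and 114 in the same order by 1 probe set and 41.0, 133, 55.7 and 33.8 by the other. The vector lines thus differed in Tgm3 by 3.62-fold and by 2.26-fold, in opposite directions. F13a1, the A subunit of coagulation factor XIII, gave 140.0, 47.8, 165 and 123, and only vector 2 stood low. None of these 3 genes was tested, and their groups overlapped by every probe set. From the list of further transglutaminase genes, Tgm4, Tgm5, Tgm6, Tgm7, F13b and Epb42, 5 of 6 had values and 0 passed the filter.

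Lox, the founding lysyl oxidase, was far below the filter by all 3 of its probe sets. The signals by 1416121_at were 23.0 and 21.5 in vector 1 and vector 2, and 22.1 and 40.2 in MTf 4 and MTf 6. They were 75.5, 10.2, 3.4 and 8.2 by 1437903_at and 21.7, 42.2, 9.8 and 19.0 by 1448228_at, in the same order. Both clones were below both vector lines by the latter 2 probe sets but not by the first, and a different line was highest by each. None of the 3 was tested. Lox is also known as the ras recision gene, for its loss in fibroblasts transformed by ras.

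Loxl1, which crosslinks elastin, was bright in all 4 lines by 1 probe set. By 1451978_at the signals were 8296 and 11282 in vector 1 and vector 2, and 10924 and 9947 in MTf 4 and MTf 6. The clones lay between the vector lines, and the log2 difference was 0.11 (SE 0.20, 95% interval -0.37 to 0.59, limma adjusted p = 1.00). Its other probe set, 1436063_at, gave 253, 183, 222 and 353 in the same order, with MTf 6 highest, and a log2 difference of 0.34 (95% interval -0.56 to 1.24). The 2 probe sets ordered the vector lines in opposite ways, and neither parted the groups.

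Loxl3, a lysyl oxidase with scavenger receptor domains, gave signals of 994 and 1463 in vector 1 and vector 2, and 1295 and 788 in MTf 4 and MTf 6. The clones differed from each other by 1.62-fold and the vector lines by 1.46-fold, both more than the groups, whose log2 difference was -0.25 (SE 0.31, 95% interval -0.96 to 0.47, limma adjusted p = 1.00). Its order of the lines within each group was the reverse of that of Tgm2, with MTf 6 lowest and vector 2 highest.

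Loxl4, of the same subgroup, parted the groups in opposite directions by its 2 probe sets. By 1421153_at the signals were 1034 and 962 in vector 1 and vector 2, and 809 and 938 in MTf 4 and MTf 6, lower in both clones, and the log2 difference was -0.19 (SE 0.21, 95% interval -0.69 to 0.31). By 1450134_at they were 812, 709, 877 and 911 in the same order, higher in both clones, with a log2 difference of 0.23 (SE 0.22, 95% interval -0.28 to 0.73). Both differences were about the size of their standard errors, with a limma adjusted p = 1.00 for each, and the gene has no direction here.

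Plod2, the collagen telopeptide lysyl hydroxylase, also differed in sign between its 2 probe sets. By 1416687_at the signals were 4059.8 and 4497 in vector 1 and vector 2, and 3362 and 4536 in MTf 4 and MTf 6, and the log2 difference was -0.13 (SE 0.21, 95% interval -0.63 to 0.37). By 1416686_at they were 1627, 2159.6, 1995 and 2345.5 in the same order, with a log2 difference of 0.20 (SE 0.23, 95% interval -0.33 to 0.73). MTf 6 was the highest line by both, the groups overlapped by both, and the limma adjusted p = 1.00 for each.

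**Figure D2:**
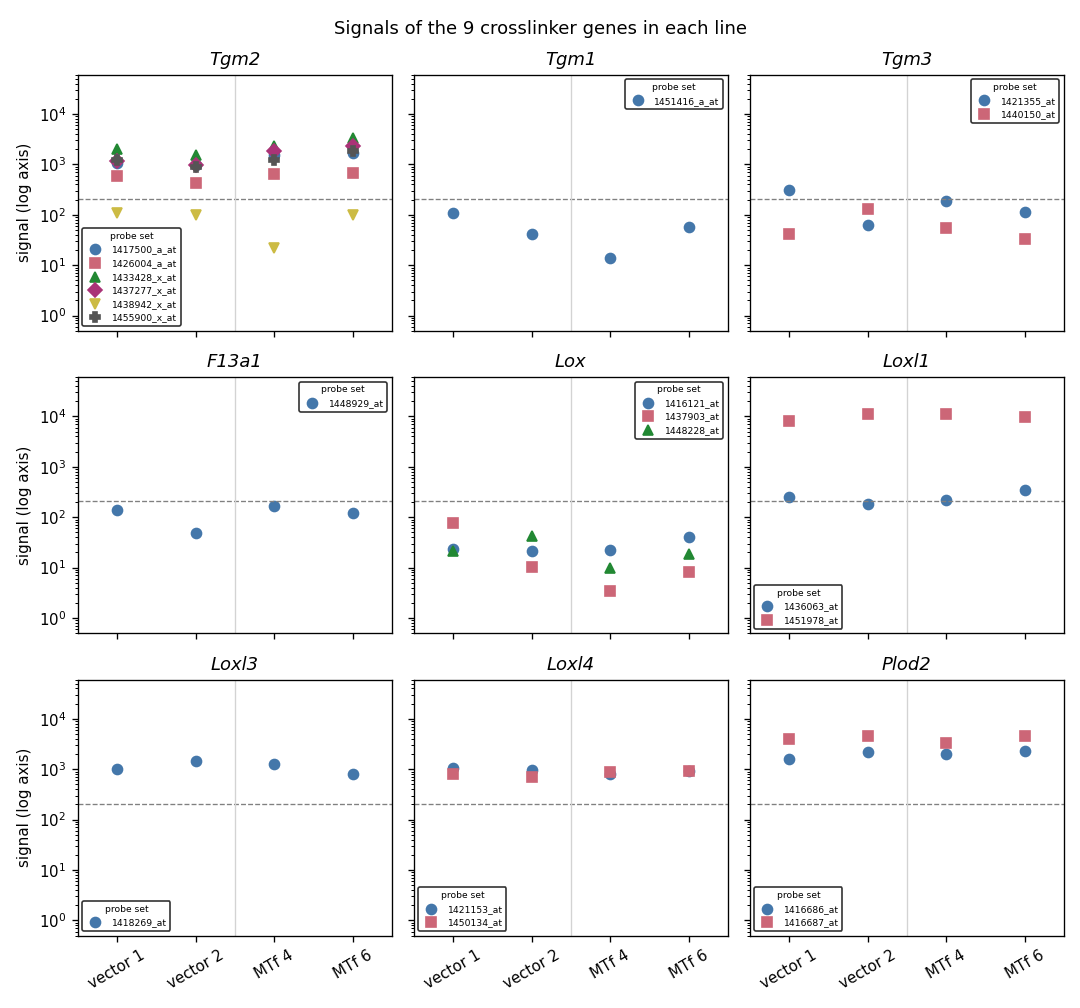
Signals on a log axis of all 20 probe sets of the 9 genes in the 4 lines, 1 array per line, with the filter at a signal of 206 as a dashed line. Tgm1, Tgm3, F13a1 and Lox lie under the line but for 1 Tgm3 signal of 314.5 in vector 1, and Loxl1 by 1451978_at lies between 8296 and 11282.

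Apart from Tgm2, 0 of the 7 tested probe sets of this family were called between the groups by limma at an adjusted threshold of 0.05, and 0 at the same threshold without adjustment. The background is as low: 1 of 22519 tested probe sets was called, or 0.00444%, and 408 passed without adjustment. The 7 log2 differences lay between -0.25 and 0.34. The lowest end of their 95% intervals was -0.96, for Loxl3, and the highest was 1.24, for the dim Loxl1 probe set 1436063_at. Other intervals were narrower, as for the bright Loxl1 probe set, from -0.37 to 0.59. All 7 intervals included 0, so each probe set leaves room for a difference within its own interval. Of the 7, 1 parted the groups with the clones higher, where 12.1% of all tested probe sets did, and 1 with the clones lower, where 13.6% did. Both are the probe sets of Loxl4. Over all 12 tested probe sets, 0 differed at least 2-fold between the clones, against 5.26% of all tested probe sets, and 0 between the vector lines, against 3.77%.

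**Figure D3:**
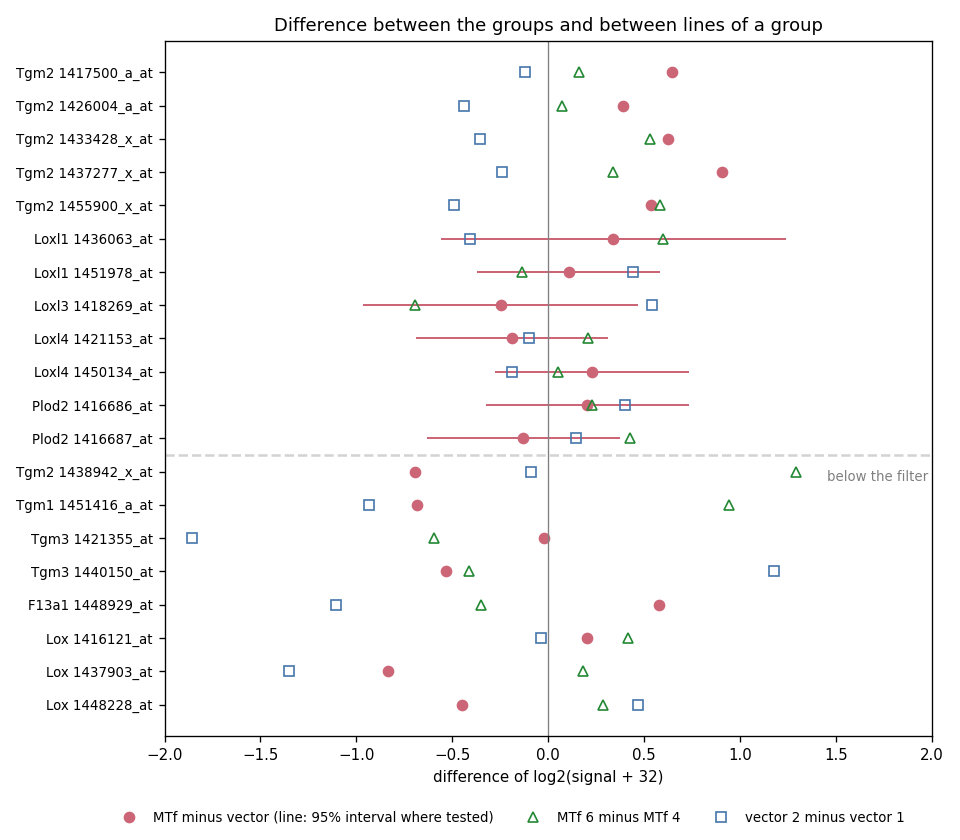
Differences in log2(signal + 32) for all 20 probe sets: MTf minus vector as filled points, with the 95% interval of the limma fit for the 7 tested probe sets other than those of Tgm2, and the difference between the lines of each group as open symbols. The 5 tested Tgm2 probe sets lie between 0.39 and 0.91, and for Loxl1, Loxl3 and Plod2 the within-group differences are as wide as the group difference or wider.

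The genes that work with these enzymes were taken as 7 lists, each gene by its tested probe set with the highest mean, and 0 of their members were called by limma in either direction. Over all 10706 genes tested, 0 were called and 188 passed without adjustment, the median log2 difference was -0.0050 and 49.0% were higher in the mean of the clones. All named list genes had a limma adjusted p = 1.00, so what follows are values. Of the 16 named genes with several tested probe sets, 5 had probe sets of opposite sign, namely Bmp1, Atox1, Plcd1, Arnt and Pgk1.

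Among 11 enzymes and chaperones that modify collagen, 9 were higher in the mean of the clones and 2 lower, with a median of 0.14, and 0 passed without adjustment. By line, the median deviation of these genes from their own mean over the arrays was -0.14 for vector 1 and 0.13 for vector 2, against 0.054 and 0.012 for the clones MTf 4 and MTf 6. Vector 2 thus lay above both clones, and vector 1 alone stood low. Crtap, part of the prolyl 3-hydroxylase complex, gave 7056 and 6974 in vector 1 and vector 2, and 7881 and 8219 in MTf 4 and MTf 6, higher in both clones by 0.20 on the log2 scale (95% interval -0.20 to 0.60). P4ha1, of prolyl 4-hydroxylase, had a log2 difference of 0.14 and also parted the groups, though its other tested probe set, with a difference of 0.096, did not. P3h1, the catalytic partner of Crtap, differed by 0.38 with overlapping groups, and Serpinh1, the collagen chaperone HSP47, by -0.15. The group differences were small beside the 95% intervals of each gene.

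Of 7 genes of lysyl oxidase maturation and copper supply, 3 were higher and 4 lower in the mean of the clones, with a median of -0.066, and 0 passed without adjustment. Bmp1, the protease that cleaves the propeptide of lysyl oxidase, gave 284 and 936 in vector 1 and vector 2, and 1281 and 711 in MTf 4 and MTf 6. Vector 1 stood low and the groups overlapped, and another probe set of Bmp1 differed by -0.15. Pcolce, which enhances that protease, differed by -0.17, and Atox1, a copper chaperone, by -0.15, while other probe sets of Atox1 differed by -0.025 and 0.097.

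Of 15 fibrillar collagen and elastic fibre genes, the substrates, 5 were higher and 10 lower in the mean of the clones, with a median of -0.11, and 1 passed without adjustment. This was Col5a2, a chain of collagen V, with 9242 and 11068 in vector 1 and vector 2, and 13171 and 14644 in MTf 4 and MTf 6, and the groups differed by 0.46 on the log2 scale (95% interval 0.035 to 0.88). Its partner chain Col5a1 was higher in both clones too, by 0.45 (95% interval -0.072 to 0.97). The fibulin genes Fbln1 and Fbln2, of elastic fibres and basement membranes, differed by -0.52 each, and Fbln2 was low in MTf 6 alone.

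Of 12 partners of transglutaminase 2 at the cell surface, 6 were higher and 6 lower in the mean of the clones, with a median of 0.034, and 1 passed without adjustment. This was Sdc2, the heparan sulfate proteoglycan syndecan 2, with 2998 and 4517.5 in vector 1 and vector 2, and 5911 and 7768.5 in MTf 4 and MTf 6. Its log2 difference was 0.87 (95% interval 0.28 to 1.47), and its other tested probe sets differed by 1.06 and 1.11. Fn1, fibronectin, the main matrix partner of Tgm2, gave 24584.5 and 35814 in vector 1 and vector 2, and 56426 and 31986 in MTf 4 and MTf 6. MTf 4 stood above the other lines and MTf 6 lay between the vector lines, and the log2 difference was 0.52 (95% interval -0.17 to 1.21). Pdgfrb, a growth factor receptor, was lower in both clones, with a log2 difference of -0.47, and its other tested probe set differed by -0.38 with overlapping groups. Plcd1, a phospholipase, differed by 0.53 with MTf 4 alone high, and by -0.14 by its other tested probe set.

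Of 13 genes of retinoid and TGF-beta signalling, which are known inputs to Tgm2 and Lox, 5 were higher and 8 lower in the mean of the clones, with a median of -0.029, and 0 passed without adjustment. Rarg, a retinoic acid receptor, gave 1097 and 1574 in vector 1 and vector 2, and 1925 and 1795 in MTf 4 and MTf 6, and the groups differed by 0.49 on the log2 scale (95% interval -0.065 to 1.04), while another probe set of Rarg differed by 0.16. Rxrb, a partner of that receptor, was lower in both clones, with a log2 difference of -0.33 (95% interval -0.85 to 0.19). However, MTf 4, at 2070.3, lay just below vector 1, at 2093.9. Tgfb3 and Crabp2 differed by 0.93 and -0.31 with overlapping groups. A further list held 15 genes of hypoxia signalling, an input to Lox and Plod2, and of the wider response to hypoxia. Of these 5 were higher and 10 lower in the mean of the clones, with a median of -0.042, and 1 passed without adjustment. This was Egln3, a prolyl hydroxylase that marks HIF for degradation, with 799.8 and 1320.1 in vector 1 and vector 2, and 585 and 409.7 in MTf 4 and MTf 6, and the groups differed by -1.02 on the log2 scale (95% interval -1.75 to -0.30), while its other tested probe set differed by less than 0.01. Arnt, the partner of HIF, differed by 0.46 by its brightest probe set and by -0.065, 0.16 and -0.14 by the others, so the gene has no direction here. Ankrd37 differed by -0.59, with vector 2 far above the other lines, and by -0.19 without vector 2 and -0.99 without vector 1. Pgk1, a glycolytic enzyme, differed by -0.16, and by -0.15 and 0.034 by its other probe sets.

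**Figure D4:**
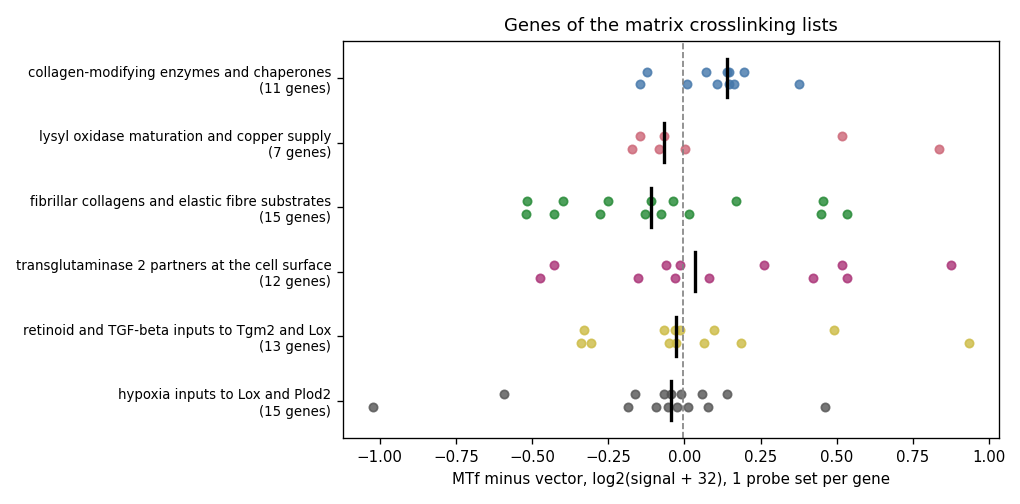
Each point is the log2 difference, MTf minus vector, of 1 gene by its tested probe set with the highest mean. Black bars are list medians, from -0.11 to 0.14, and the dashed line is the median of all 10706 genes tested, -0.0050.

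As a check of the labels, Meltf, which encodes melanotransferrin, gave 265 and 274 in vector 1 and vector 2, and 1518.5 and 1884.5 in MTf 4 and MTf 6, and the groups differed by 2.52 on the log2 scale (limma adjusted p = 0.0911). Of 10 fibroblast markers 7 were above the filter, among them Col1a1, Col1a2, Pdgfra and Vim, while Thy1, Fap and Dcn were below it. Above the filter were 4 of 8 macrophage, 4 of the 10 keratinocyte and epithelial markers with values, 1 of 5 endothelial and 2 of 5 platelet markers. For scale, 10706 of all 18193 genes had a probe set above the filter, so these counts alone say little of the cell type. The summed signals of all 5 lists overlapped between the groups. For fibroblast markers they were 178187 to 191158 in the vector lines and 186294 to 215629 in the clones. Most of each sum was Vim, at 74441 to 94073 over the lines, and S100a4, at 65756 to 75392. Some dimmer markers differed within a group, with Col1a1 at 695 and 2400 in vector 1 and vector 2. Pdgfra was at 2464 and 671 in MTf 4 and MTf 6. For macrophage markers the summed signals were 1777 to 2095 in the vector lines and 1580.4 to 2493 in the clones. For keratinocyte and epithelial markers they were 1607 to 2155 and 1979 to 2023, for endothelial markers 572 to 672.5 and 584 to 757, and for platelet markers 1159 to 1769 and 1427 to 1573. Of the 4 keratinocyte and epithelial markers above the filter, Krt5, Lor and Krt8 differed by -0.12, -0.42 and -0.19 (log2). The remaining one, Epcam, named after its values were seen, was higher in both clones by a probe set with the suffix _x_at. Its signals were 130.5 and 40.1 in vector 1 and vector 2, and 325.5 and 405 in MTf 4 and MTf 6. Epcam passed the filter only through the clones, since both of its vector signals were under 206. It was the only marker of that list whose groups did not overlap. In the fibroblast and macrophage lists 2 markers each were higher in both clones and 1 was lower, and in the endothelial and platelet lists 0 were. These counts include markers below the filter, among them Itgam and Mrc1, the macrophage markers that were higher. Over all genes tested, which leaves out those below the filter, 11.8% parted the groups with the clones higher and 12.6% with the clones lower. The part of Epcam in the Tgm2 result was not tested.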

How the data were processed

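Total RNA of 4 lines was measured on 1 array each. The authors deposited 1 linear intensity per probe set and array. GCOS 1.3 made it, per the submitters' processing notes, and its settings were not given in the sources used here. All arrays had the same 2%-trimmed mean of 1000.01, so values were used as deposited, and detection calls were not used. Of 45101 probe sets, 64 were controls, and 34945 of the other 45037 had 1 gene in the platform annotation.

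Signals were converted to log2(signal + 32). Controls were set aside, probe sets with a mean under the median of the rest were left out, and 22519 were tested two-sided for MTf minus vector in R 4.3.3, with lmFit and a trended eBayes of limma 3.58.1, with Benjamini-Hochberg adjustment. The fit was tested on simulated data. A first simulation, with error variances taken from the moderated variances of the fit, gave a share of false calls above the threshold, and the simulation was changed after that was seen. With variances drawn from the fitted prior, as the test assumes, the share was close to the threshold, so this check does not cover other distributions of the variance. With 2 arrays per group no exact permutation test can reach the threshold, and the small number of arrays limits how precise any value is.

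The members and lists were chosen with earlier results of these data known. Named genes were all members, from each list up to 4 genes with the smallest p-value, the 5 genes nearest to Tgm2, and Meltf. The same search around Lox was not run, because Lox did not pass the filter. Promoter sequences were matched by symbol to a RefSeq table of GRCm38.p6.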

Additional observations from a re-analysis of the deposited data

How the results depend on the processing

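Each result was recomputed under 8 other settings where they apply, and with each of the 4 arrays left out. Without an array 1 group holds 1 sample, which is assumed to vary like the others. With all arrays, no list member and no member probe set other than those of Tgm2 was called under any setting. The Tgm2 probe sets were part of the fits, but their test results are not given, since Tgm2 was chosen for this difference. The number of probe sets called on the whole array was 1, and it was 0 without the filter and 0 without the trend. With 1 array left out it lay between 1 and 21, with 21 without MTf 4, 9 without MTf 6 and 2 without vector 1. Without the filter, which adds dim probe sets, 1 member probe set was at least 2-fold apart between the clones and 4 between the vector lines.

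The log2 difference of Tgm2, by its brightest probe set, lay between 0.36 and 0.89 with 1 array left out and between 0.58 and 0.65 otherwise. With 1 array left out, Loxl1 lay between -0.11 and 0.33, Loxl3 between -0.59 and 0.099 and Plod2 between -0.34 and 0.086, so their sign rests on single lines. By the median over both probe sets of the gene, Loxl4 was at 0.019 and Plod2 at 0.037, opposite in sign to their brightest probe sets. For the named list genes the same settings were added after the data were seen. Their signs held except with 1 array left out, where P3h1 lay between -0.0038 and 0.76, Pcolce between -0.37 and 0.025, Fbln2 between -1.06 and 0.021, Tgfb3 between -0.046 and 1.91 and Crabp2 between -0.79 and 0.18. The log2 difference of Meltf lay between 2.36 and 2.67 with 1 array left out and between 2.40 and 2.58 otherwise. With all arrays its limma adjusted p was 0.445 without the filter and 0.377 without the trend, against 0.0911 in the main fit. Under the other settings that kept all arrays it lay between 0.0766 and 0.0949. This range does not cover the fits with 1 array left out. There 1 group holds 1 sample, so only the log2 difference is given. No paired analysis was possible because the groups share no replicate numbers.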
